A study of Mus musculus with 16 samples.

Results

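The genes described here are 7 that write, copy or remove DNA methylation: Dnmt1, Uhrf1, Dnmt3a, Dnmt3b, Dnmt3l, Tet1 and Tet2. They are 7 of 49997 mouse genes with a position in the RefSeq annotation of GRCm38.p6, the assembly also called mm10. For each gene, the window of 5000 bp whose midpoint lay nearest a transcription start site (TSS), and at most 650 bp from it, was taken from 38053 distinct windows. All accessible regions over the gene and 5 kb to either side were taken from a table of 127646 regions. This gave windows for 5 of the 7 genes and 61 regions.

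The assay was ATAC-seq, which marks open chromatin by where a transposase can cut and tag the DNA, on mouse embryonic stem cells (mESCs). Every group carried the genotype label FOXD3-iKO and was grown in medium labelled L2i. Cells labelled 4HT (tamoxifen, which induces the loss of FOXD3) were compared after 24 h with cells labelled EtOH (ethanol, the control), and each was sorted by DNA content after DAPI staining into fractions labelled G1, ES, LS and G2. Each of the 8 groups had 2 libraries, 16 in all, but the tables hold 1 column per group, so the libraries were taken as pooled and the values carry no SD between libraries. The study thus asks how accessibility changes after loss of the forkhead protein FOXD3 and how it varies with the cell cycle. The control cells carry the same inducible allele, and the labels do not say whether the line is 1 clone.

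In mammals most DNA methylation lies on the cytosine of CpG dinucleotides. The DNMT3 enzymes set it on unmethylated DNA, DNMT1 copies it to the new strand after replication with the help of UHRF1, and TET enzymes oxidise 5-methylcytosine, a first step of its removal. CpG-rich promoters are usually free of methylation and open, and embryonic stem cells express most of these enzymes.

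The tables hold a coverage signal scaled to library size (CPM). From the values it was inferred that the signal is averaged over covered bases only, since intervals without a read have no value and many share 1 smallest value. That smallest value was read as what 1 read is worth in the column, from 0.0895 in EtOH G2 to 0.147 in 4HT G1, which would correspond to 6.78 to 11.2 M reads per column. A level below is the mean over the 8 columns of the signal divided by the 1-read value of its column, so that a level of 1 means single reads. The window of Foxd3 itself had a signal of 0.243, 0.158, 0.141 and 0.169 in 4HT G1, ES, LS and G2, against 0.153, 0.195, 0.155 and 0.11 in EtOH. These values overlapped between treatments, and accessibility at a start site does not show whether the gene was deleted. The 10 windows of embryonic stem cell markers had a median level of 1.87. The highest were Klf2 at 2.73, Pou5f1 at 2.65 and Zfp42 at 2.58, and the lowest Esrrb at 1.25, Nanog at 1.43, Klf4 at 1.51 and Sox2 at 1.58. The medians were 1.28 for 7 fibroblast markers, 1.19 for 4 markers of primitive endoderm and 1.29 for 4 of neuroectoderm. Among these the fibroblast marker Fn1 was the highest at 1.65, above Esrrb, Nanog, Klf4 and Sox2. In bulk libraries, fewer cells with an open interval and less signal per cell cannot be told apart.

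Several of the genes start from more than 1 site, and the sites differed in whether an accessible region lay over them. The RefSeq promoter table holds 14 promoters of the 7 genes, each 250 bases before to 50 after a TSS. Of these, 12 overlapped a region, against 47.8% of all 32817 promoters in that table. The stretches below are the 250 bases before a TSS in GRCm38.p6, read 5′ to 3′ on the strand of the gene, with each CpG in capitals. They are shown for Dnmt1, Dnmt3l and Uhrf1 because each pair sets 2 start sites of 1 gene beside each other. The stretches lie at chr9:20959889-20960138 and chr9:20952980-20953229 on the minus strand, and at chr10:78042037-78042286, chr10:78049592-78049841, chr17:56303087-56303336 and chr17:56304063-56304312 on the plus strand.
Dnmt1 outer TSS: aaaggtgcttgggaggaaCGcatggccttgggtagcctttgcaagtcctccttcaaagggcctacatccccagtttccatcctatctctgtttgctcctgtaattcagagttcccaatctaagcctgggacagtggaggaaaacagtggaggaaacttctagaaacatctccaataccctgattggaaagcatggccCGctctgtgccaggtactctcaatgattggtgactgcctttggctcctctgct
Dnmt1 middle TSS: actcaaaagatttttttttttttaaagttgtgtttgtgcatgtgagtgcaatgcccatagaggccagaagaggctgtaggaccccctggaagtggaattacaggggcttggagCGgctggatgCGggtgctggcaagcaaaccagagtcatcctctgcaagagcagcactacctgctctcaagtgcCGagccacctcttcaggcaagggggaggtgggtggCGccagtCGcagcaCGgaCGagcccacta
Dnmt3l outer TSS: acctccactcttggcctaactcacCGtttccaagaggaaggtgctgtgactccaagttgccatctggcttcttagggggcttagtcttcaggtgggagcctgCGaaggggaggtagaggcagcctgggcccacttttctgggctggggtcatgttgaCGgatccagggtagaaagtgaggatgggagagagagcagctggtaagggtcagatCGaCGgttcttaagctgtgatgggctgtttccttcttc
Dnmt3l middle TSS: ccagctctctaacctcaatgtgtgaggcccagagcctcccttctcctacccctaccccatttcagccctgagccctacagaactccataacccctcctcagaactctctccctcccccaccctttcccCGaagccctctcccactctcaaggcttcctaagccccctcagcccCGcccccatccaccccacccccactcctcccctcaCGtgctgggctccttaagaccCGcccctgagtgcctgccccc
Uhrf1 outer TSS: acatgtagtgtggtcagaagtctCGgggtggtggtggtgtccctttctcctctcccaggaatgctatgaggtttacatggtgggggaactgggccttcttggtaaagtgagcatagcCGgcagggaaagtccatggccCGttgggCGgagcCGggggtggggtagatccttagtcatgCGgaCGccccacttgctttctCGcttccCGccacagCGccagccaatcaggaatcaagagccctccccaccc
Uhrf1 inner TSS: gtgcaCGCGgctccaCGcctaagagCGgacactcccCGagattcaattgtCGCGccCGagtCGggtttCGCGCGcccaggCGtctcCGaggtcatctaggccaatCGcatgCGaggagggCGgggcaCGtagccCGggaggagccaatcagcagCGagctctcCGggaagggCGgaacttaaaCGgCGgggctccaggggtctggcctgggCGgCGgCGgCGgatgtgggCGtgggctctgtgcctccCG

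Both promoters without a region, the outer ones of Dnmt1 and Dnmt3l, were poor in CpG. The observed CpG number over the number that base composition gives (the CpG ratio) was 0.101 over the 300 bases of the outer Dnmt1 promoter and 0.272 over those of the outer Dnmt3l promoter. At Dnmt1 it was 0.5 at the middle TSS and 0.91 at the inner TSS, and 1 region covered both. At Uhrf1 it was 0.472 at the outer and 0.959 at the inner TSS, each with its own region. Dnmt3l was the exception to this order, since its middle and innermost promoters had regions at ratios of 0.219 and 0.114. Of the 14 promoters, 7 had a ratio of at least 0.6 and all 7 overlapped a region, as did 92.0% of all promoters above that ratio and 23.1% of the others. The Tet2 promoter was the richest, with 57 CpGs in 300 bases and a ratio of 1.17, above 99.2% of all promoters.

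Short motifs were searched by exact letters on both strands of the 14 promoters, as a description of sequence and not of binding. The forkhead core TGTTTAC was in 0 of 14 (3.65% of all promoters), the octamer ATGCAAA in 0 of 14 (4.63%) and the ETS core CCGGAAG in 0 of 14 (8.86%). The NRF1 core GCATGCG, from the site of a factor whose binding is known to be blocked by methylation, was in 4 of 14 against 3.57% of all promoters. Those 4 were the middle and inner promoters of Dnmt1, the inner promoter of Uhrf1 and that of Tet2, and in Uhrf1 it can be read in the stretch printed above. The inner 2 promoters of Dnmt1 belong to 1 gene and are not independent. The Sp/KLF core GGGCGG was in 11 of 14 (35.6%), CCAAT in 4 (37.4%), the E2F cores TTCCCGC or TTGGCGC in 2 (6.80%), the E-box CACGTG in 2 (7.15%) and the CRE core TGACGTC in 1 (3.21%). GCATGCG and GGGCGG, among other cores here, contain a CpG and so share it with CpG richness. A CpG ratio of at least 0.6 was found in 7 of the 14 promoters, against 35.8% of all, and whether this accounts for the motif shares was not tested. The outer and middle Dnmt3a promoters, which overlap each other, held 6 and 7 copies of GGGCGG, against 2 in the innermost.

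Among the TSS windows the order of the levels was Uhrf1, Tet2, Dnmt3l, Dnmt3b and Dnmt1. This is an order of windows and not of whole genes. The only region in the Dnmt3l window lies over the TSS of the adjacent gene Aire. The Dnmt1 window lies at the outer TSS, whose promoter had no region, and not at the middle and inner TSS. The levels were 1.95 ± 0.43 for Uhrf1, 1.67 ± 0.37 for Tet2, 1.43 ± 0.30 for Dnmt3l, 1.33 ± 0.20 for Dnmt3b and 1.24 ± 0.19 for Dnmt1 (SD over the 8 columns, which belong to different groups). The median over 18247 windows of protein-coding genes with a read in every column was 1.35. Uhrf1 stood above 89.3% of those windows, Tet2 above 79.1%, Dnmt3l above 60.3%, Dnmt3b above 46.6% and Dnmt1 above 33.7%. None of the 4 neighbouring pairs in this order differed beyond their spread over the columns, and pairs further apart were not tested. In every column the Uhrf1 window was above the Dnmt1 window, at 1.39 to 2.54 against 1.05 to 1.63 times the 1-read value. The exact 2-sided sign-flip permutation test over the 8 columns gave p = 0.172 for Uhrf1 against Tet2, 0.266 for both Tet2 against Dnmt3l and Dnmt3l against Dnmt3b, and 0.359 for Dnmt3b against Dnmt1 (adjusted over the 4 pairs 0.354, 0.354, 0.354 and 0.359, smallest possible p 0.0078).

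**Figure D1:**
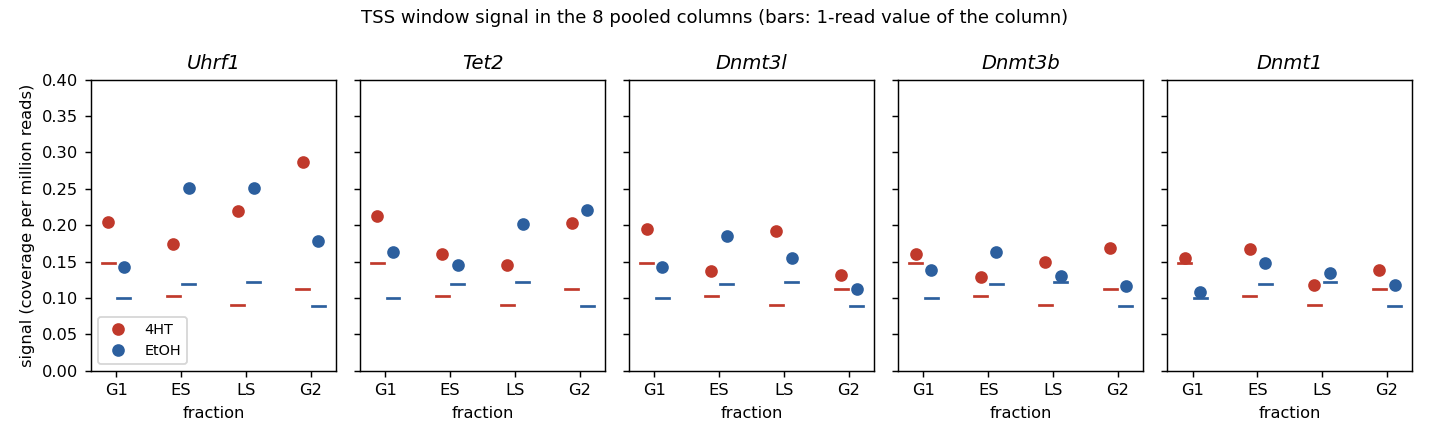
Coverage signal in CPM (vertical axis) in the TSS window of 5 genes, by cell cycle fraction (horizontal axis). Each point is 1 pooled column, red for 4HT and blue for EtOH, and the short bars mark what 1 read is worth in that column. The Uhrf1 window reached 0.287 in 4HT G2, while the Dnmt1 window stayed between 0.109 and 0.167.

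The genes that copy methylation are described first. UHRF1 binds CpGs methylated on 1 strand and brings DNMT1 to them. The Uhrf1 window, centred 166 bp from the outer TSS on chromosome 17, had a signal of 0.205, 0.174, 0.219 and 0.287 in 4HT G1, ES, LS and G2, against 0.143, 0.251, 0.251 and 0.179 in EtOH. The highest value was 4HT in G2 and the lowest EtOH in G1, and the treatments overlapped. Expressed as multiples of the 1-read value, both G1 columns were the lowest, at 1.39 (4HT) and 1.43 (EtOH), and the others lay between 1.70 and 2.54.

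The window held a region over each of the 2 start sites. Region 2 (regions of a gene are numbered by rising coordinate), at chr17:56303123-56303544, covered the outer TSS with a level of 2.52. Region 3, at chr17:56303909-56304499, covered the inner TSS with a level of 3.71, above 95.4% of all regions read in every column. The level of region 3 was 1.48 times that of region 2, and it was higher in 6 of 8 columns. A further region at chr17:56325422-56326370 had the highest level of all 61, 7.14, but it lay past the end of Uhrf1. It covered the start of the neighbouring gene Kdm4b, a histone demethylase, and no start site of Uhrf1.

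Dnmt1, the maintenance methyltransferase, had its window at the outer TSS only. The signal there was 0.155, 0.167, 0.118 and 0.138 in 4HT G1, ES, LS and G2, against 0.109, 0.148, 0.134 and 0.118 in EtOH. These are 1.05 to 1.63 times the 1-read value, and the window was under the minimum level of 1.3 for testing. In contrast, region 2 of Dnmt1 at chr9:20952250-20953193, centred 7167 bp inside the annotated gene and over the middle and inner TSS, had a level of 2.93, above 90.4% of all regions read in every column. Its signal was 0.241, 0.259, 0.4 and 0.338 in 4HT G1, ES, LS and G2, against 0.277, 0.307, 0.314 and 0.351 in EtOH. Both G1 columns were below both G2 columns, and the treatments overlapped. The only other region of Dnmt1 had a level of 1.52, so that the gene had 0.319 regions per 10 kb against a median of 0.768 over protein-coding genes.

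The genes of de novo methylation follow. Dnmt3b, an active de novo methyltransferase, had a window signal of 0.16, 0.13, 0.149 and 0.169 in 4HT G1, ES, LS and G2, against 0.139, 0.164, 0.13 and 0.117 in EtOH. The columns overlapped between treatments and fractions, and none was above 1.65 times its 1-read value. A single region at chr2:153649071-153650360 covered the promoter with a level of 1.61, and the other of its 2 regions had reads in 6 of 8 columns. None of the Dnmt3b regions reached the minimum level of 2 for testing.

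Dnmt3a, the second active de novo methyltransferase, has a shorter form made from an inner promoter in embryonic stem cells. All 3 of its promoters in the RefSeq table overlapped a region, but with few reads. Region 2, over the CpG-rich outer pair, had a level of 0.907 when columns without a read count as 0, with 6 of its 7 read columns at 1 read. The innermost promoter was overlapped by region 11, read in 5 of 8 columns. No window midpoint was within 650 bp of a Dnmt3a TSS, and the nearest, 863 bp away, had a level of 1.6. The highest of the 11 regions, region 10 at chr12:3889774-3890474, lay 1270 bp before the innermost TSS and had a level of 2.01. Its signal was 0.36, 0.175, 0.158 and 0.259 in 4HT G1, ES, LS and G2, against 0.34, 0.161, 0.19 and 0.144 in EtOH. Both G1 columns were above all others, and the treatments overlapped.

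Dnmt3l, which has no catalytic activity and stimulates the other DNMT3 proteins, had the densest regions of the 7 genes, 8 in all. Its 2.55 regions per 10 kb exceeded those of 95.0% of protein-coding genes. Each gene was counted with 5 kb to either side, so regions near neighbouring starts are included, here regions 2 and 8 near Aire and Icosl. The window signal was 0.195, 0.137, 0.192 and 0.132 in 4HT G1, ES, LS and G2, against 0.142, 0.186, 0.155 and 0.112 in EtOH. Both G2 columns were the lowest of their treatment. The region with the highest level was region 3, at chr10:78048175-78048290, 1552 bp before the middle TSS, at 2.41. It is only 116 bp wide, against 693 bp for region 6 over the middle TSS, at a level of 1.64. Since the signal was read as an average over covered bases, levels of regions of such unlike width do not rank their accessibility. The signal of region 3 was 0.294, 0.197, 0.142 and 0.471 in 4HT G1, ES, LS and G2, against 0.255, 0.246, 0.122 and 0.359 in EtOH. LS was thus lowest and G2 highest in both treatments. The EtOH LS value was that of 1 read. Region 2 of Dnmt3l lay over the TSS of the adjacent gene Aire, and region 8 was past its end, 1803 bp from the TSS of Icosl, so these are not Dnmt3l promoters. The Dnmt3l window, at chr10:78039298-78044297, held region 2 and no other region. The level and differences of this window therefore include the start of Aire and cannot be assigned to Dnmt3l alone.

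The TET enzymes oxidise 5-methylcytosine. Tet1 had no window within 650 bp (the nearest was 6195 bp away) and 15 regions, of which 5 were read in every column and none had a level of 2. Region 15 at chr10:62887070-62887526 covered its TSS with a level of 1.5. The highest Tet1 region, at chr10:62843712-62844231, lay 43093 bp inside the gene with a level of 1.77. Its signal was 0.253, 0.228, 0.194 and 0.204 in 4HT G1, ES, LS and G2, against 0.152, 0.194, 0.144 and 0.173 in EtOH. In this signal the 4HT column was above the EtOH column in all 4 fractions. As multiples of the 1-read value it was above in G1, ES and LS but below in G2, at 1.81 against 1.93. The region was under the minimum level and received no test.

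Tet2 had 19 regions, the most of the 7 genes, and 2.08 per 10 kb, above 90.1% of protein-coding genes. Its window signal was 0.213, 0.16, 0.146 and 0.204 in 4HT G1, ES, LS and G2, against 0.164, 0.145, 0.202 and 0.222 in EtOH. The values of the treatments overlapped. Region 18, at chr3:133544070-133545218 over the promoter, had a level of 2.27, with a signal of 0.274, 0.202, 0.152 and 0.276 in 4HT G1, ES, LS and G2, against 0.266, 0.184, 0.243 and 0.357 in EtOH. The strongest accessible site of the locus was not the promoter but region 13, at chr3:133524431-133525456 and 18934 bp inside the gene, with a level of 4.24, above 97% of all regions read in every column. Its signal was 0.395, 0.311, 0.692 and 0.348 in 4HT G1, ES, LS and G2, against 0.284, 0.384, 0.75 and 0.475 in EtOH. Both LS columns were above all others. Region 13 was above region 18 in 8 of 8 columns, with a ratio of levels of 1.87. Exon boundaries were not used here, so whether region 13 is intronic is not stated.

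**Figure D2:**
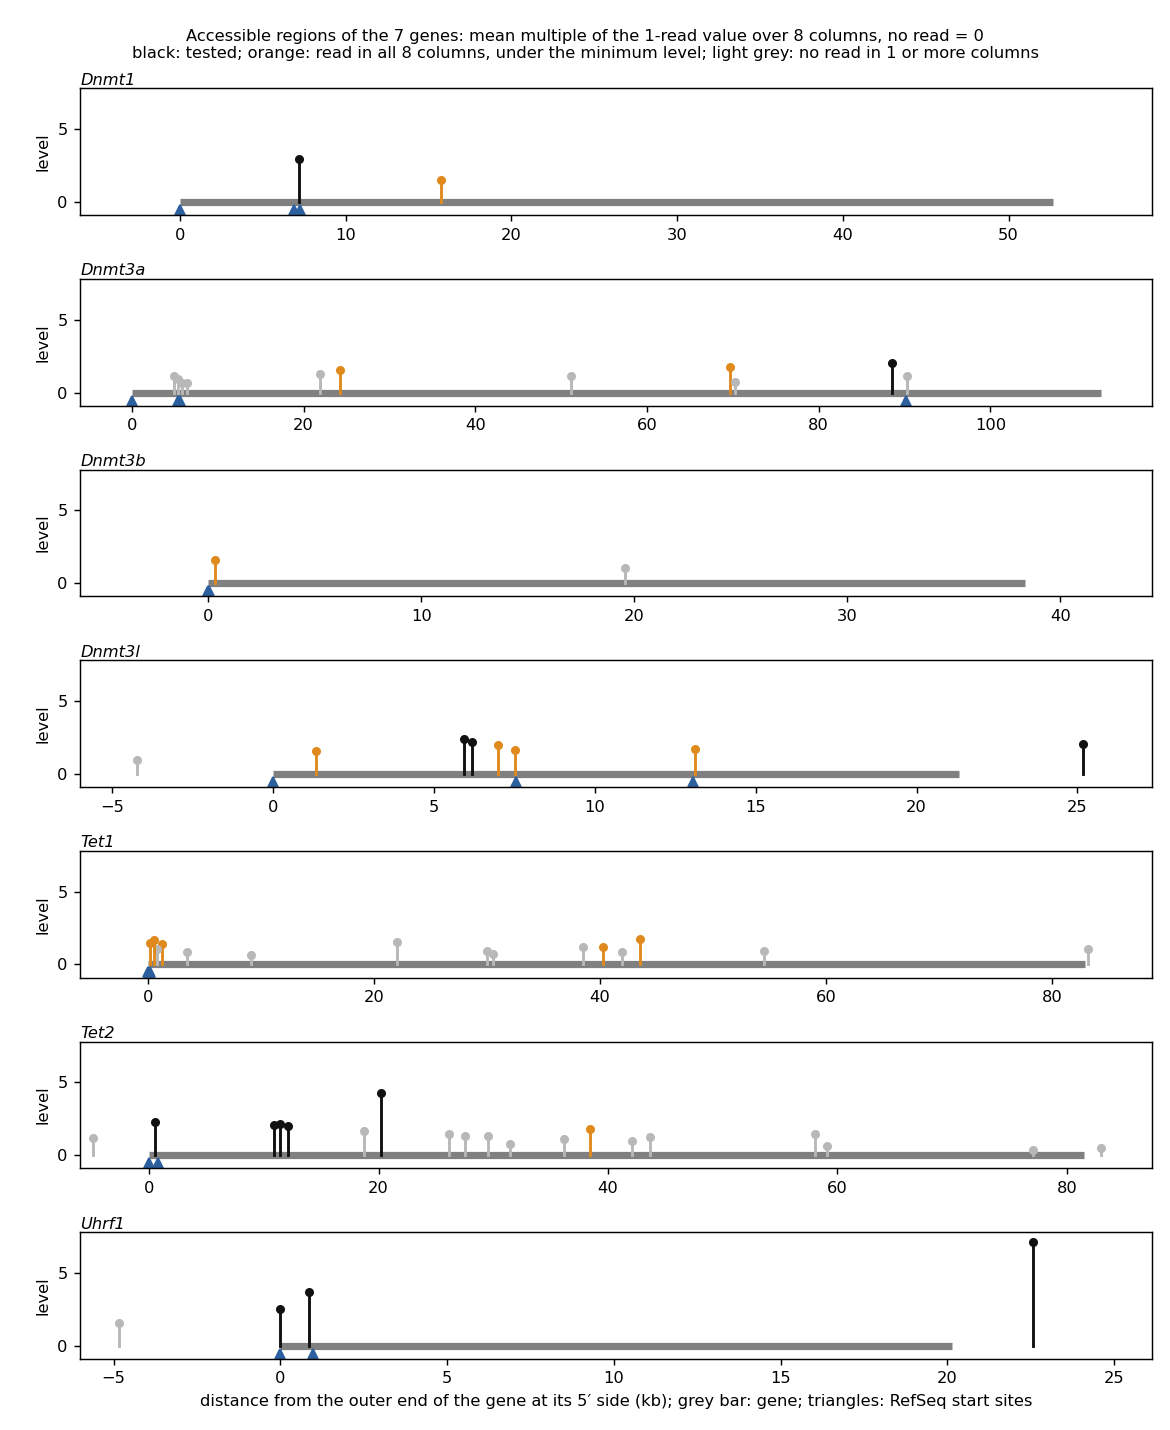
Level of each of the 61 regions (vertical axis, mean multiple of the 1-read value over 8 columns with no read as 0) by distance from the 5′ end of the gene in kb. The grey bar is the gene and triangles are RefSeq start sites; black marks tested regions, orange those read in every column but under the minimum level, light grey those without a read in at least 1 column. The Tet2 region inside the gene, at 4.24, stands above the Tet2 promoter region at 2.27.

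Over the 61 regions, 27 (44.3%) had a read in every column, against 30.4% of all regions. A level of at least 2 was reached by 13, or 21.3%, against 8.63% of all. The median level of the 27 was 1.95, against 1.61 for all regions read in every column. Within 1000 bp of a protein-coding TSS the order was reversed, with a median of 1.72 for the member regions against 1.87 for all such regions. The member regions include those over the starts of Aire and Kdm4b. The 13 tested regions were 5 of Tet2, 3 of Dnmt3l, 3 of Uhrf1 and 1 each of Dnmt1 and Dnmt3a. The members nearest the minimum level were region 10 of Dnmt3a at 2.01 (inside) and region 5 of Dnmt3l at 1.95 (outside), and among windows Dnmt3b at 1.33 and Dnmt1 at 1.24. The other regions of these genes are given only by their levels, and no count of tested intervals stands for all members.

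The comparison of 4HT with EtOH asks whether loss of FOXD3 changed accessibility at these genes. None of the 4 tested windows and none of the 13 tested regions passed a Benjamini-Hochberg adjusted p of 0.05 in limma, with 0.0131% of all tested windows and 0.0% of all tested regions called. Across the tables, 5.28% of windows and 5.42% of regions had an unadjusted p under 0.05, and 0 of the 17 member intervals did. The model was fitted to log2(signal + 0.1) of the 8 columns, which understates the change of low intervals, and the 4 fractions served as its repeats. A p-value therefore reflects how pooled columns vary and says nothing of the spread between cultures.

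At the windows the fitted log2 differences, 4HT minus EtOH, were 0.07 (SE 0.10) for Uhrf1, 0.06 (SE 0.08) for Dnmt3l, 0.06 (SE 0.08) for Dnmt3b and -0.03 (SE 0.09) for Tet2. Their 95% intervals together spanned -0.21 to 0.28. That span holds for the signal with 0.1 added. With coverage corrected for bases without a read, the differences were 0.08 (SE 0.17) for Uhrf1 and 0.08 (SE 0.19) for Dnmt3l. For Dnmt3b and Tet2 the correction gave 0.12 (SE 0.21) and -0.002 (SE 0.18), so the narrow span is no firm bound on a change. The adjusted p-values in limma were 0.989 or higher. The median of the 13 region differences was -0.01, with 6 above 0. The 4HT and EtOH columns overlapped at all 17 tested intervals, while 2.54% of all windows and 2.81% of all regions had groups that did not overlap.

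Among the regions the largest differences lay side by side inside Tet2 and had opposite signs. Region 16, at chr3:133533432-133533946, had a signal of 0.183, 0.124, 0.119 and 0.318 in 4HT G1, ES, LS and G2, against 0.217, 0.274, 0.363 and 0.262 in EtOH. It was lower with 4HT in 3 of 4 fractions, with a log2 difference of -0.45 (SE 0.24, limma adjusted p = 0.934). Region 17, at chr3:133534093-133534457, had a signal of 0.229, 0.296, 0.186 and 0.34 in 4HT and of 0.158, 0.119, 0.161 and 0.266 in EtOH, in the same order. It was higher with 4HT in 4 of 4 fractions, with a log2 difference of 0.39 (SE 0.23, limma adjusted p = 0.934). As multiples of the 1-read value its G1 columns were nearly equal, at 1.56 in 4HT and 1.57 in EtOH. Neither difference passed the test, and the columns of the treatments overlapped at both. The EtOH ES value of region 17 was that of 1 read, and without the ES fraction its difference was 0.22. Without LS that of region 16 was -0.26. With coverage corrected for the bases that hold no read, the differences were -0.78 and 0.83 (limma adjusted p = 0.925 for both), and with a pseudocount of 0.5 they were -0.19 and 0.17.

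The promoter regions had smaller fitted differences. Region 2 of Dnmt1 was at -0.01 (SE 0.20, 95% interval -0.43 to 0.41), region 18 of Tet2 at -0.15 (SE 0.21) and region 2 of Uhrf1 at -0.10 (SE 0.22). Region 3 of Uhrf1 was at 0.05 (SE 0.29), but its columns differed widely. Its signal was 0.398, 0.175, 0.484 and 0.612 in 4HT G1, ES, LS and G2, against 0.288, 0.621, 0.476 and 0.229 in EtOH. After centring, the 4HT minus EtOH difference was -1.34 in ES and 1.15 in G2, both outside the range that holds the central 95% of all tested regions in that fraction (-0.90 to 0.92 in ES and -0.92 to 0.91 in G2). Of 52 region differences within a fraction 4 lay outside that range, or 7.69%, where 5% of all regions do by construction. With 1 column per group, an effect of treatment that depends on the fraction could not be tested.

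**Figure D3:**
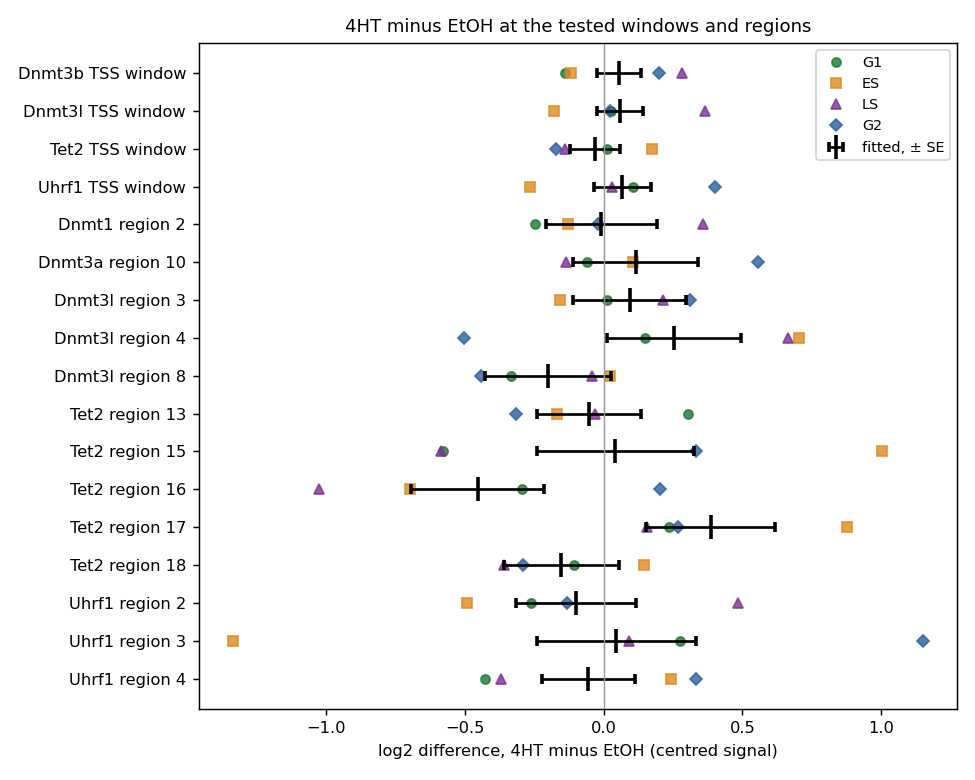
Log2 difference of centred signal, 4HT minus EtOH (horizontal axis), for the 4 tested windows and 13 tested regions. Coloured symbols are the 4 fractions and the black bar is the fitted value with its SE. Fitted values run from -0.45 (Tet2 region 16) to 0.39 (Tet2 region 17), and Uhrf1 region 3 has symbols on both sides of 0, at -1.34 and 1.15.

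The comparisons of ES, LS and G2 with G1 ask whether accessibility at these genes varied with DNA content, with the 2 treatments as repeats. Again 0 of 4 windows and 0 of 13 regions passed the adjusted threshold in limma in any of the 3 comparisons. The shares of all windows called were 0.0196% for ES, 0.0718% for LS and 0.0457% for G2, and those of all regions 0.0%, 0.0% and 0.0182%. An unadjusted p under 0.05 was found for 0, 1 and 1 of 4 member windows in ES, LS and G2 (6.78%, 6.9% and 5.64% of all windows). It was found for 2, 3 and 0 of 13 member regions (7.13%, 7.28% and 5.9% of all regions).

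The columns of the 2 fractions compared did not overlap for 2 windows in ES, 1 in LS and 3 in G2, of 4, with 36.1%, 35.4% and 34.6% of all windows. They did not overlap for 5, 7 and 7 of 13 regions, with 36.2%, 35.9% and 34.2% of all regions. With 2 columns against 2, this is common across the table. The median region difference was 0.06 in ES, -0.17 in LS and 0.21 in G2, with 8, 6 and 11 of 13 above 0, and the medians over all tested regions were -0.0031, -0.0035 and -0.0044. With no centring and with 1 median shift per column the count in G2 was again 11 of 13, and in LS it was 6 and 5. These settings use the same columns and are no repeat of the result. The 13 regions are not independent, since 5 are of Tet2 and all share the G1 columns. They also include the region over the start of Kdm4b, and these counts were not tested.

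The Uhrf1 window was above G1 in all 3 other fractions in both treatments after centring. The log2 difference from G1 was 0.26 (SE 0.15) in ES, 0.32 (SE 0.15) in LS and 0.32 (SE 0.15) in G2, with limma adjusted p of 0.778, 0.681 and 0.83. The treatments gave 0.07 and 0.44 in ES, 0.28 and 0.35 in LS, and 0.47 and 0.18 in G2, for 4HT and EtOH in that order. With coverage corrected for bases without a read these differences were 0.49, 0.58 and 0.59, and with a pseudocount of 0.5 those in LS and G2 were 0.13 and 0.14, none of them called. The 3 contrasts share their G1 columns and are not independent of one another. At the outer TSS, region 2 of Uhrf1 had a signal of 0.147, 0.26, 0.321 and 0.275 in 4HT G1, ES, LS and G2, against 0.17, 0.433, 0.223 and 0.311 in EtOH. Both G1 columns were below all others, and 4HT G1 stood at 1 read. The log2 difference from G1 was 0.80 (SE 0.31, limma adjusted p = 0.62) in ES, 0.44 (SE 0.31) in LS and 0.59 (SE 0.31) in G2. The same correction gave 1.5, 1.002 and 1.23, and the larger pseudocount gave 0.37 in ES and 0.26 in G2, again not called. At the inner TSS, region 3 was at 0.06, 0.26 and 0.06 (SE 0.40 each).

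Region 13 of Tet2 had the smallest p of all member values. Its log2 difference of LS from G1 was 0.77 (SE 0.26, 95% interval 0.21 to 1.32, 1.70-fold), with 0.60 in 4HT and 0.94 in EtOH, and 0.46 with a pseudocount of 0.5. The unadjusted p in limma was 0.00987 and the adjusted p 0.565, so it did not pass. In ES and G2 the same region was at 0.09 and 0.15 (SE 0.26 each). The promoter region of Tet2, region 18, was at -0.40 (SE 0.29) in LS, with both treatments below 0.

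Region 10 of Dnmt3a was below G1 in all 3 fractions. The log2 differences were -0.71, -0.79 and -0.62 in ES, LS and G2 (SE 0.32 each), with limma adjusted p of 0.678, 0.617 and 0.874. The correction gave -1.20, -1.30 and -1.03, and a pseudocount of 0.5 gave -0.33, -0.37 and -0.29, not called either. Region 3 of Dnmt3l was at -0.75 (SE 0.29, limma adjusted p = 0.606) in LS and at 0.44 (SE 0.29) in G2. In LS the correction gave -1.47 and the larger pseudocount -0.32. Region 2 of Dnmt1 was at 0.12, 0.23 and 0.26 (SE 0.28 each) in ES, LS and G2.

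**Figure D4:**
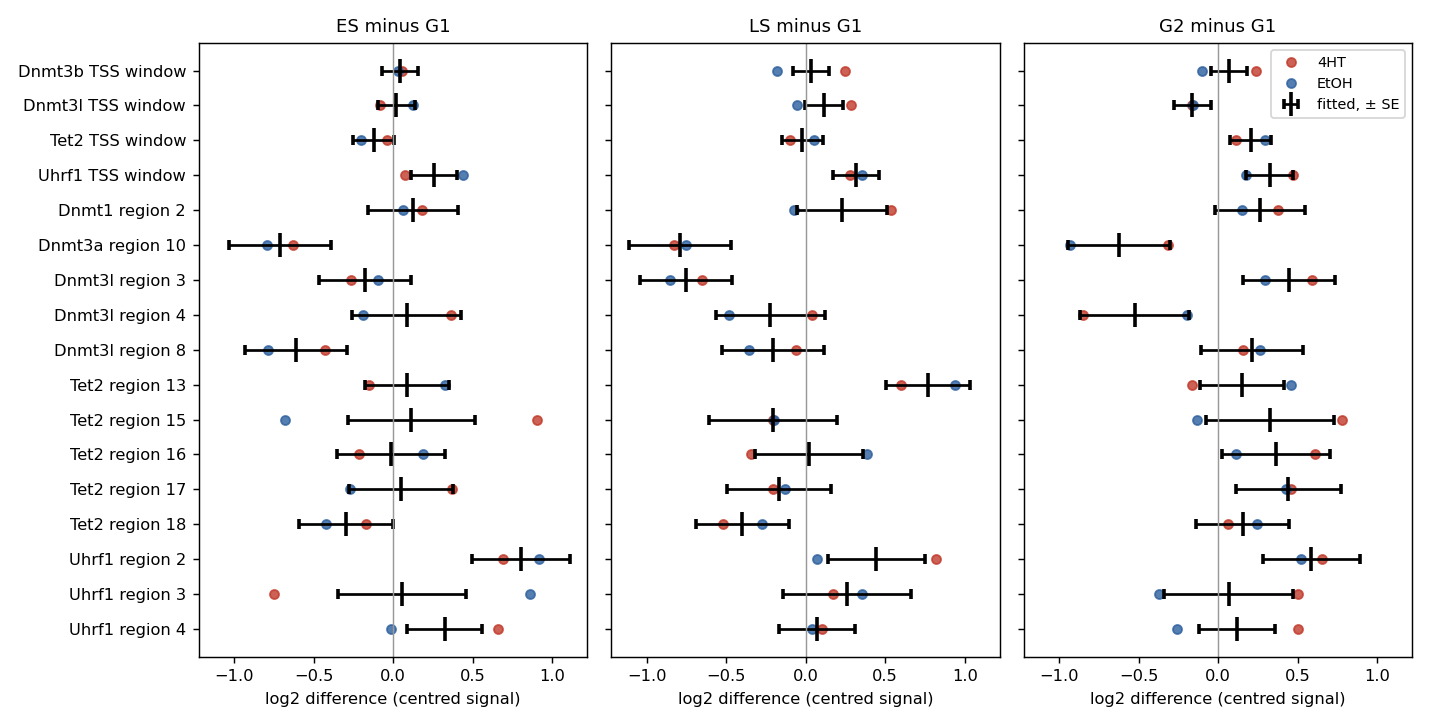
Log2 difference of centred signal from G1 (horizontal axis) for ES, LS and G2, at the 17 tested windows and regions. Red and blue points are 4HT and EtOH and the black bar is the fitted value with its SE. Dnmt3a region 10 lies left of 0 in all 3 panels, Uhrf1 region 2 right of 0 in all 3, and Tet2 region 13 at 0.77 in LS.

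The genes whose windows varied most like those of Dnmt3l, Tet2 and Uhrf1 over the 8 columns were taken by the highest Pearson r of centred signal, among 10462 or 10463 windows of other protein-coding genes. They were Hsd17b14 for Dnmt3l (r = 0.952), Nifk for Tet2 (r = 0.956) and Gpr25 for Uhrf1 (r = 0.930). Since the Dnmt3l window includes the start of Aire, its likeness cannot be assigned to Dnmt3l alone. The columns share depth and libraries, 8 to 16 windows exceeded r = 0.9 for each of the 3, and these are descriptions with no test. Among the 4 members with a tested window r ran from -0.75 (Dnmt3l with Tet2) to 0.51 (Dnmt3b with Uhrf1), with both signs among the 6 pairs.

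Of 30 other genes of DNA methylation, its readers and its cofactors, 27 had a window and 21 were tested. Their median level was 1.49, beside 1.43 for the 5 member windows. The latter is the level of the Dnmt3l window, which includes the start of Aire. The highest were Mbd3, part of the NuRD complex, at 3.51, and Trim28, a corepressor needed to keep imprints, at 3.20, both above every member window. The lowest were Zbtb33 (Kaiso, a reader of methylated DNA) at 1.23 and Tet3, the third TET enzyme, at 1.18. Tet3 was thus below the Tet2 window at 1.67, while Uhrf2, the paralog of Uhrf1, was at 2.15.

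In the 4HT against EtOH comparison 0 of the 21 were called in limma and 2 had an unadjusted p under 0.05. Their median log2 difference was -0.05, with 2 of 21 above 0, against a median of 0.00 and 50.2% above 0 over all tested windows. Among the alternatives tried, the number above 0 of the 21 ran from 2 to 8 and the median stayed below 0. Without any centring 7 were above 0. The values are thus small, and none of the genes rose or fell by the test. The largest were Mbd2 at -0.25 (SE 0.11) and Mbd3 at -0.21 (SE 0.11), both of them methyl-CpG-binding domain proteins, with limma adjusted p of 0.942 and 0.969.

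In the fraction comparisons 0 of 21 were called in limma, and 2 had an unadjusted p under 0.05 in each. The medians were 0.07, 0.04 and -0.03 in ES, LS and G2, with 14, 13 and 8 of 21 above 0, against 50.3%, 50.1% and 49.997% of all tested windows. With no centring 11, 8 and 4 of 21 were above 0 and the LS median turned to -0.02, while the medians of all windows were -0.06, -0.06 and -0.09. In ES the largest were Mbd3 at 0.39 (SE 0.16) and Mbd4, a glycosylase that repairs deaminated methylcytosine, at 0.26 (SE 0.14). In LS they were Mbd4 at -0.35 (SE 0.14) and Pcna, the replication clamp that brings DNMT1 to new DNA, at -0.28 (SE 0.16). In G2 they were Gadd45a, a stress gene linked to demethylation, at 0.32 (SE 0.15) and Usp7, a deubiquitinase of DNMT1 and UHRF1, at -0.24 (SE 0.11). These are of the size of the Uhrf1 window differences, and none passed the adjusted threshold.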

How the data were processed

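ATAC-seq of mESCs was measured in 16 libraries. The deposited values are a coverage signal; the authors scaled it to library size (CPM), in 1 column per group, as the table's name and the file headers give it. The submitters' processing notes name mm10, featureCounts and DESeq2, with no role; for aligner and peak caller, not given in the sources used here. Columns were taken as pooled libraries, and intervals with no read hold no value. The coverage program is not named, so averaging over covered bases and the depth implied by the 1-read value are inferred from the values, and precision is limited by single reads.

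Intervals with a read in every column and a level of at least 1.3 (15323 windows) or 2 (11010 regions) entered limma 3.58.1 in R 4.3.3, on log2(signal + 0.1) with cyclic loess centring, additive terms for treatment and fraction, trend and robust moderation, and Benjamini-Hochberg adjustment over the table. An interval emptied in any column is thus not tested, and losses near 1 read are understated. Neighbouring levels were compared by exact permutation.

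TSSs and sequences came from RefSeq (GRCm38.p6), and all 7 genes were found. The members and gene lists were chosen with earlier results of these data known. All members are named; of the other methylation genes, the 2 highest and 2 lowest levels and the 2 largest differences per comparison; Uhrf2 was added after its value was seen. The window most like that of Dnmt3b is not reported here. Alternatives were another pseudocount, other minimum levels, other centring, a correction for averaging over covered bases, and each fraction left out.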

Additional observations from a re-analysis of the deposited data

How the results depend on the processing

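No member window or region was called under any alternative, which were a pseudocount of 0.5, no minimum level, a higher minimum level of 1.6 for windows and 3 for regions, no centring, 1 median shift per column, a correction for averaging over covered bases, and the omission of each fraction a contrast does not need. The smallest adjusted p in limma under any of them was 0.402. Of 530 alternative values of the 68 member differences, 491 lay within 1 SE and 39 beyond. For ES, LS or G2 minus G1, leaving out an unused fraction cannot change the fitted value, only its SE. Those values are among the 491 by design and say nothing of stability. A sign changed 29 times, in 22 differences, none larger in size than 0.21 in the main fit. The value after the change was larger in some, up to -0.35 for region 17 of Tet2 in ES minus G1 with corrected coverage.

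Over the whole tables few intervals were called, and the number moved with the setting. It ran from 0 to 4 windows for 4HT minus EtOH, 0 to 4 for ES, 0 to 11 for LS and 4 to 8 for G2, and 0 to 3 regions for ES at the higher minimum level. The cause was not tested. Depth limits every value: each column left between 19.9% and 32.8% of all regions without a read, and no loss can be seen below 1 read. No paired analysis was possible because the columns carry no replicate number by which libraries could be matched. The fit matches 4HT with EtOH by fraction only.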
